A study of Caenorhabditis elegans with 2 samples.

Results

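The cytosolic ribosomal protein genes of Caenorhabditis elegans were taken as the protein-coding genes whose WBcel235 name begins with rpl-, rps- or rla-. These were 81 of 19973 nuclear protein-coding genes, 50 for the large subunit, with the acidic stalk genes rla-0, rla-1 and rla-2 among them, and 31 for the small subunit. Occupancy by FLT-1 was measured by chromatin immunoprecipitation and sequencing in whole embryos at the midembryonic stage, with an age label of 1 hour, collected by egg bleaching. The only group had 2 biological replicates of strain RW12255, whose genotype is given as st12255[flt-1::TY1::EGFP::3xFLAG] I, and the tagged protein was precipitated with an antibody against GFP from sonicated fragments of 200 to 800 bp. No other genotype, stage or treatment was compared, the tagged gene is named baz-2 in the labels as well, and the reads behind the deposited peak lists were not analysed here, which leaves sequencing depth unknown. Embryos were assayed whole, and binding in few cells and weak binding in many cells cannot be told apart.

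Ribosomal proteins assemble with ribosomal RNA into a large subunit, which joins amino acids into a chain, and a small subunit, which reads the mRNA. Their genes are among the most strongly transcribed in growing animal cells, and their products are needed in matching amounts. FLT-1 is a BAZ2-type chromatin protein with a bromodomain and a PHD finger. In other proteins both modules bind histone tails, acetylated ones in the case of the bromodomain.

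A gene was counted as bound when a peak summit of the authors' conservative list lay between 1000 bp upstream and 200 bp downstream of its annotated start. By this rule 41 of the 81 ribosomal protein genes were bound, 50.6% (95% Wilson interval 39.95 to 61.2), against 6.82% of all nuclear protein-coding genes. All intervals of shares given here cover the counting of genes only. In the list called on replicate 1 alone, 26 members were bound (32.1%, against 4.43% of all genes), and in that of replicate 2 alone 25 members were bound (30.9%, against 3.53%). Both single-replicate lists held 23 of these members, replicate 1 alone held 3 and replicate 2 alone held 2. All of the members in either list were among the 41, and the other 13 bound members were in neither. The conservative list compares both replicates by the irreproducible discovery rate (IDR) and was cut by the authors at 0.01. The global IDR used here is the estimated share of irreproducible peaks among those ranked at or above a given peak. At an IDR of at most 0.0001, 13 members were still bound (16.05%), against 1.19% of all genes.

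The share bound was higher among small than among large subunit genes, by a margin within the counting error. In the conservative list 18 of 31 small subunit genes were bound (58.1%, interval 40.8 to 73.6) and 23 of 50 large subunit genes (46.0%, 33.0 to 59.6), a difference of -12.1 percentage points for large minus small with a Newcombe interval of -32.3 to 9.94. The list of replicate 1 held 14 large subunit genes (28.0%) and 12 small subunit genes (38.7%), a difference of -10.7 points (-31.1 to 9.56). The list of replicate 2 held 14 large and 11 small subunit genes (35.5%), a difference of -7.48 points (-27.96 to 12.3). Under the stricter IDR the counts were 5 large and 8 small subunit genes, a difference of -15.8 points (-34.1 to 0.794). Each of the intervals above includes 0, and each also reaches far past the difference measured. When each summit was given to the single nearest gene start instead, 25 members were bound, 15 large and 10 small, against 5.02% of all genes, and the difference shrank to -2.26 points.

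**Figure D1:**
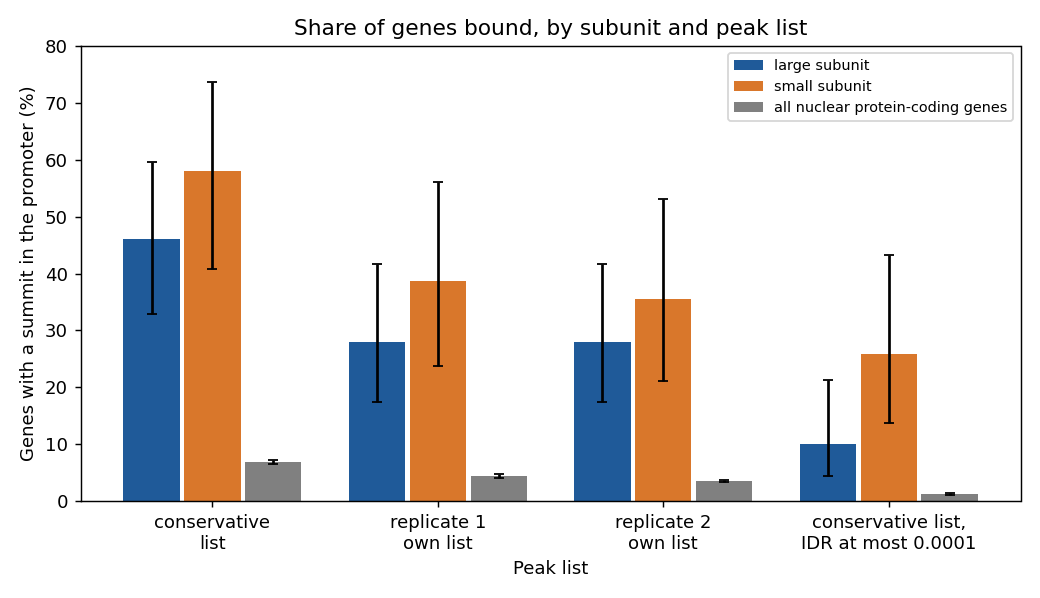
Percentage of large subunit genes (blue), small subunit genes (orange) and all nuclear protein-coding genes (grey) with a summit in the promoter, in the conservative list, in each replicate's own list and under the stricter IDR. Bars start at 0 and error bars are 95% Wilson intervals; both subunits stand above all genes in the 4 lists, 46.0% and 58.1% against 6.82% in the conservative one, and their intervals overlap each other.

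Members stood above all genes at each reproducibility score examined, on both sides of the authors' threshold. The authors' ranked list holds peaks before thresholding, with a reproducibility score, the negative log10 of the global IDR, which has a ceiling of 5 and is 2 at the authors' threshold. A ranked peak of any score had its summit in the promoter of 78 of the 81 members, 49 of 50 large and 29 of 31 small subunit genes, against 61.0% of all genes. Here the share was higher for the large subunit, by 4.45 points (-5.24 to 18.8). At a score of 0.5 or more 65 members remained (80.2%) against 24.22% of all genes, and at 1 or more 56 members (69.1%) against 13.1%. Above the threshold, 25 members (30.9%) reached a score of 3 against 3.59% of all genes. The ceiling was reached by rpl-3 and rpl-15, 2.47% of the members against 0.215% of all genes.

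**Figure D2:**
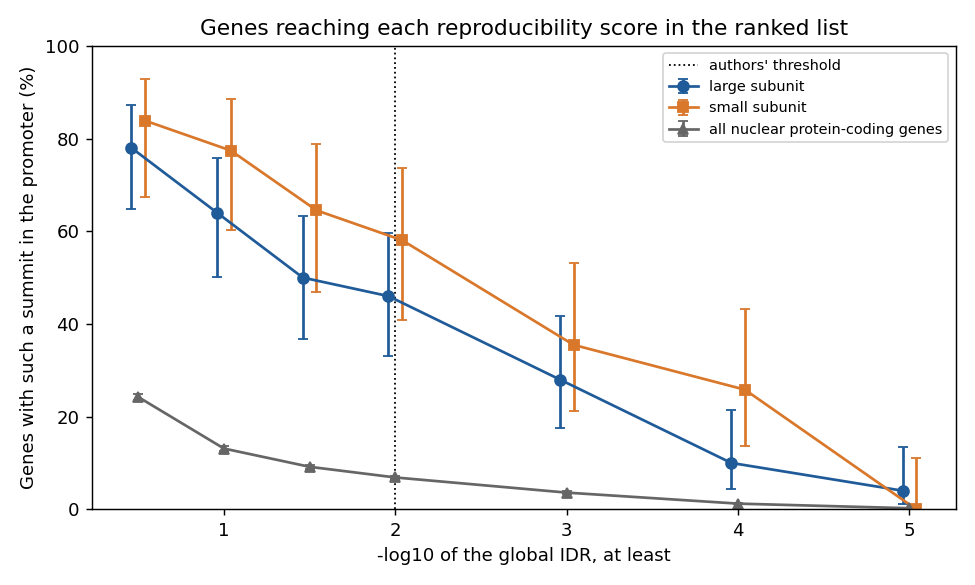
Percentage of large subunit genes (blue circles), small subunit genes (orange squares) and all nuclear protein-coding genes (grey triangles) whose promoter holds a summit at or above each reproducibility score, on a -log10 scale, with 95% Wilson intervals and the authors' threshold as a dotted line. Subunit points are moved slightly apart along the horizontal axis; at a score of 1 the members stand at 69.1% and all genes at 13.1%.

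The DNA under the summits is shown for 8 promoters, as 75 bp to each side of the summit, because it displays the words that were common at members and it sets members of different binding strength side by side. The first 6 were bound: rpl-3 (chrIII:3867506-3867656, plus strand), rpl-15 (chrIV:654855-655005, minus strand), rpl-20 (chrIV:4749991-4750141, minus strand), rps-28 (chrIV:1659201-1659351, plus strand), rpl-43 (chrII:14154467-14154617, plus strand) and rps-9 (chrII:11126489-11126639, minus strand). The last 2 were below the threshold: rpl-21 (chrIII:8130455-8130605, minus strand) and rpl-36 (chrIII:7179774-7179924, plus strand), whose peak also lies upstream of rps-14 on the other strand. All are from the WBcel235 reference, the same assembly as ce11, 5′ to 3′ on the strand of the gene. Capitals mark CCTAAA, which reads TTTAGG on the opposite strand, and ACCGTA, which reads TACGGT there.
rpl-3: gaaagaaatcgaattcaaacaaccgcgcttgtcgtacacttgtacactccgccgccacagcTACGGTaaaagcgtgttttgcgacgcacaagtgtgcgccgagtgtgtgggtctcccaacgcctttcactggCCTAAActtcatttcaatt
rpl-15: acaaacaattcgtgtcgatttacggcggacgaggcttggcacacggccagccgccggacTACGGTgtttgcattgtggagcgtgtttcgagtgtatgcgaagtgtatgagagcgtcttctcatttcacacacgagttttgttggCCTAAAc
rpl-20: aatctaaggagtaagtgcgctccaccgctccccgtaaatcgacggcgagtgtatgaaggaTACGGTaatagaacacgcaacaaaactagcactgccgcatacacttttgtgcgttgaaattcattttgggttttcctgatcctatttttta
rps-28: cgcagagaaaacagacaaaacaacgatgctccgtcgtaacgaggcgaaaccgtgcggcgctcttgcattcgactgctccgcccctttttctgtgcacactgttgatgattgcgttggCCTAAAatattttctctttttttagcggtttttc
rpl-43: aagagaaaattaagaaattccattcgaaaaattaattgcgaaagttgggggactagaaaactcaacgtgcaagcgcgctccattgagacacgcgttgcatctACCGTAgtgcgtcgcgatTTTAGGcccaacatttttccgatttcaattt
rps-9: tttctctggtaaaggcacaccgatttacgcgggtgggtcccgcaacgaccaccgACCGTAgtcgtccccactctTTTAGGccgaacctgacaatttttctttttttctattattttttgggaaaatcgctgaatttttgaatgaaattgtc
rpl-21: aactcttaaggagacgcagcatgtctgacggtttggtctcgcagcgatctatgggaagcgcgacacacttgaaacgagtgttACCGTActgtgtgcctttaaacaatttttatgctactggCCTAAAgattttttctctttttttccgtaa
rpl-36: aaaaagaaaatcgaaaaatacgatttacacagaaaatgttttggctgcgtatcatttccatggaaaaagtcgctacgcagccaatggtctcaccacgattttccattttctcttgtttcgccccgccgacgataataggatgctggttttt
Both words stood in the windows of rpl-3, rpl-15, rpl-43, rps-9 and rpl-21, and neither stood in that of rpl-36. In rpl-3 and rpl-15, the members with the highest signal, the words had the same order and orientation, with TACGGT next to the summit and CCTAAA closer to the gene. That orientation was not general, and rpl-43 and rps-9 had ACCGTA and TTTAGG instead. Within 100 bp of the summits of bound members, ACCGTA stood on the strand of the gene in 13 of 19 matches and CCTAAA in 14 of 20.

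These words were chosen after the sequences had been compared, from a ranking of all 2080 words of 6 letters by how much more often they occurred within 100 bp of the summit at bound members than at the 1322 other bound genes, so the differences there are fixed by that choice. Both strands were searched. CCTAAA stood near the summit of 18 of 41 bound members (43.9%, against 6.73% of the other bound genes) and ACCGTA near 19 (46.3%, against 9.98%). Either word was found at 27 members and both at 10. The centre of CCTAAA lay a median of 64 bp towards the gene from the summit, on the gene side in 18 of 20 matches, and ACCGTA lay a median of 28 bp towards the gene, with 13 of 19 matches on that side. Further words from the ranking were AAATCG (65.9% against 28.9%) and CGTTGA (36.6% against 7.19%). CCTAAA can share letters with CTAAAA, and AAATCG with CGTAAA, which were also high in the ranking, so these words were not counted as separate features.

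CCTAAA and ACCGTA were also present upstream of members that were not bound. Between 450 and 150 bp upstream of the start, a window also chosen after the data were seen, CCTAAA occurred in 19 of 41 bound members (46.3%), in 18 of 40 unbound members (45.0%) and in 14.3% of all genes. ACCGTA occurred there in 17 bound members (41.5%), 14 unbound members (35%) and 9.05% of all genes. All words of the ranking were picked at the summits of the bound members, many of which lie in this window. The shares of bound members here, and their distance from the other shares, are therefore partly fixed by that choice. The other words of the ranking were less even: AAATCG was in this window of 30 bound (73.2%) and 21 unbound members (52.5%), against 28.8% of all genes, and CGTTGA in 12 bound (29.3%) and 6 unbound members (15%), against 9.46%. By subunit, CCTAAA was in that window of 22 of 50 large (44.0%) and 15 of 31 small subunit genes (48.4%), and ACCGTA in 21 large (42.0%) and 10 small ones (32.3%). Among bound members the pooled signal had a median of 163 (quartiles 118 and 218) in the 18 with CCTAAA near the summit and 103 (90.3 and 178) in the 23 without it, with overlapping ranges. For ACCGTA the medians were 129 in 19 members and 133 in 22.

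Words on the list of common promoter elements gave mixed counts near the summits of the 41 bound members. TATAAA, the core of the TATA box, was near 1 summit (2.44%, against 12.9% of the other bound genes), and GAGAGA near 8 (19.5% against 32.1%). The T run TTTTTT was near 30 (73.2% against 53.8%), TTTCAG, the consensus of the splice acceptor, near 10 (24.4% against 19.4%), and CACGTG, the E-box, near 2 (4.88% against 3.25%). CGCG was as common at both, near 26 members (63.4%) and 63.6% of the other bound genes. GGTTCGA, the core of the B box of tRNA genes, was near 0 of 41, which allows a share of up to 7.32%, against 4.39% of the other bound genes. GC content within 100 bp of the summit had a median of 44.3% in both. Counts near the start differed, because most summits lie upstream of it. From 250 bp upstream to 50 bp downstream of the start, TATAAA was in 8 bound members (19.5%). It was in 14 of 40 unbound members (35%) and in 38.0% of all genes. TTTCAG was in that window of 30 bound (73.2%) and 27 unbound members (67.5%), against 51.7% of all genes.

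The pooled peak signal, a strength that the authors' peak caller assigned from both replicates together, had a median of 129 over the 41 bound members (quartiles 92.1 and 204, range 63.7 to 622). Over all 1363 bound genes the median was 112 (85.7 and 160). Bound small subunit genes had a median of 153 (91.0 and 207) and bound large subunit genes 118 (94.6 and 172), so the subunits overlapped over most of their range. In the authors' other thresholded list this order turned, with 122 for small and 132 for large subunit genes. The largest single values belonged to the large subunit.

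The large subunit gene with the highest FLT-1 peak signal was rpl-3, for the protein L3, which in yeast reaches towards the peptidyl transferase centre. The rpl-3 peak (chrIII:3867473-3867691) had a signal of 356 in replicate 1, 276 in replicate 2 and 622 pooled, with its summit 273 bp upstream. Next came rpl-15, for a core protein of the large subunit, with 221 and 197 in the replicates and 417 pooled, 354 bp upstream of its start. The peak of rpl-20 measured 198 and 157, 368 pooled, 288 bp upstream. These 3 genes were above all other members in both replicates. The gene rpl-20 was also the only member with a further summit of the conservative list inside its body, past the promoter window.

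Among 9 large subunit genes for proteins placed at the peptide exit tunnel in yeast or mammalian ribosomes, 3 were bound, rpl-35, rpl-31 and rpl-39. Of all large subunit genes 46.0% were bound. The rpl-35 signal was 167 in replicate 1 and 114 in replicate 2, 291 pooled, 452 bp upstream. The other bound genes of this set were among the bound members with the lowest pooled signal, with replicate values of 37.8 and 33.6 for rpl-31 and of 39.02 and 37.5 for rpl-39. Below the threshold stood rpl-4, rpl-17, rpl-19, rpl-25.1, rpl-25.2 and rpl-26, with reproducibility scores between 0.283 and 1.30.

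For the 5S RNA particle, which L5 and L11 form with the 5S RNA, 2 of 3 genes were bound, against 46.0% of all large subunit genes. The rpl-5 peak measured 87.8 and 56.9 in the replicates, 148 pooled, 381 bp upstream. The rpl-11.2 peak measured 55.2 and 50.9, 92.1 pooled, while its copy rpl-11.1 had 31.5 and 27.9 and stayed below the threshold with a score of 1.45. Of the stalk proteins, which recruit elongation factors, the gene for the stalk base protein rpl-12 was bound, with 86.8 and 62.3 and the summit nearest to a start of any bound member, 27 bp upstream. The stalk genes rla-0, rla-1 and rla-2 were all below the threshold, with scores of 1.03, 0.203 and 1.66. Further large subunit genes stood high: rpl-43, for a zinc-finger protein, with 130.5 and 91.4 and the farthest summit of a bound member, 752 bp upstream, and rpl-7A with 89.2 and 86.3, 93 bp upstream.

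The small subunit gene with the highest signal was rps-19, whose human counterpart RPS19 is mutated in Diamond-Blackfan anaemia. Its peak measured 155 and 149 in the replicates, 311 pooled, 311 bp upstream. That summit was nearer to the start of hsr-9, which lies 445 bp upstream on the other strand. Among 5 genes for proteins at the exit of the mRNA channel in yeast or mammals, 3 were bound, against 58.1% of all small subunit genes. Of these rps-28 had 166 and 131, 292 pooled; rps-1 had 111 and 115.03, 224 pooled; and rps-26 had 114 and 91.1, 200.6 pooled. The other members of that set were below the threshold, rps-14 with a score of 1.94 and rps-0 with 1.09. At the entry of the channel rps-30 was bound, with 39.02 and 37.5, rps-3 was below the threshold with 1.28, and rps-2 had no ranked peak.

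Other small subunit genes spanned the whole range of signals. The gene rps-20 had 132 and 98.4 in the replicates, 226 pooled, and rps-23, for a protein of the decoding centre, had 114 and 95.7, 208 pooled. The gene for S6, the substrate of S6 kinase, was at the other end: rps-6 had 15.2 and 5.29, 12.5 pooled, the lowest pooled signal of any member with a ranked peak, and a score of 0.106.

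**Figure D3:**
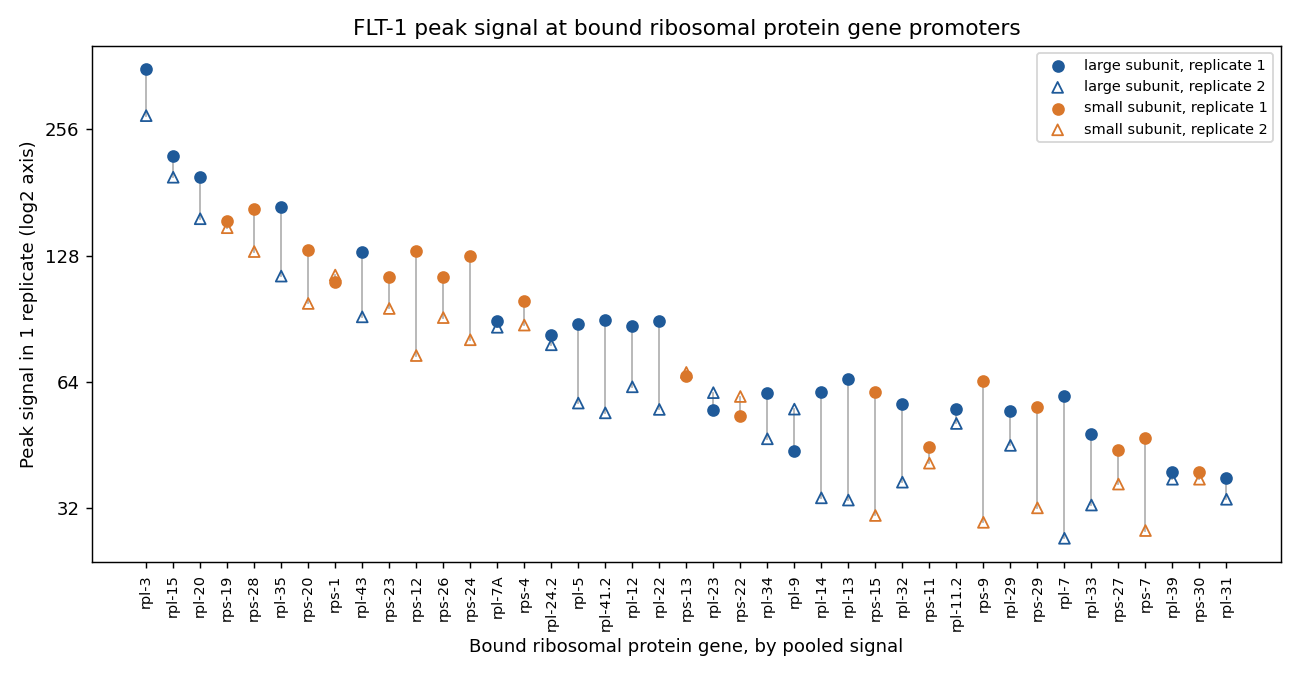
Peak signal of the 41 bound members in replicate 1 (filled circles) and replicate 2 (open triangles) on a log2 axis, with large subunit genes in blue, small subunit genes in orange, and members ordered by pooled signal. The 3 highest, rpl-3, rpl-15 and rpl-20, lie above the other members in both replicates, and replicate 1 is the higher one at 36 of the 41.

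Replicate 1 had the higher signal at 36 of the 41 bound members (87.8%), as it did at 83.9% of all bound genes. The median log2 difference between the replicates was 0.34 at bound members and 0.43 over all bound genes. Among bound members the largest gaps were at rpl-7, with 59.3 in replicate 1 and 27.1 in replicate 2 (2.19-fold), and at rps-9, with 64.2 and 29.6 (2.17-fold). Below the threshold some peaks differed far more. The peak shared by rpl-24.1 and rps-10 had 4.13 in replicate 1 and 41.2 in replicate 2, and the rla-1 peak had 42.4 and 3.41, with its summit inside the snoRNA gene Y37E3.22. The lower value of each was the lowest of any member in that replicate.

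**Figure D4:**
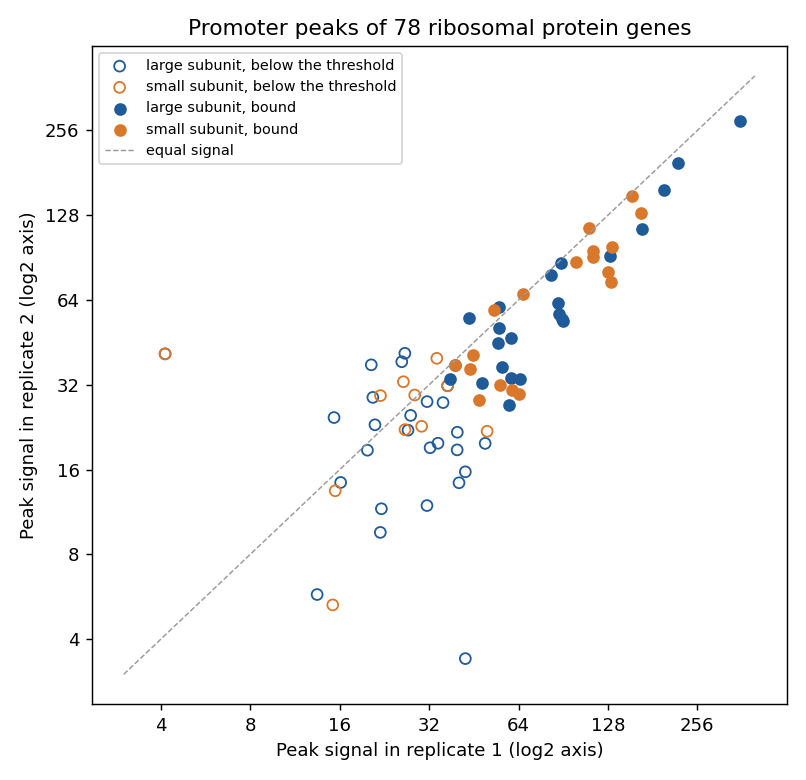
Peak signal in replicate 1 against replicate 2, both on log2 axes, for the promoter peaks of the 78 members with a ranked peak, filled where bound and open below the threshold, blue for large and orange for small subunit genes. The bound members lie along and mostly under the dashed line of equal signal, and the points far from it are the peak shared by rpl-24.1 and rps-10 (4.13 and 41.2) and that of rla-1 (42.4 and 3.41).

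Bound and unbound members were not separated by a gap. By pooled signal the weakest bound members were rpl-31 with a pooled signal of 63.7 and a score of 2.05, and rpl-39 and rps-30, which share 1 peak of 64.8 with a score of 2.24. By score rps-7 (2.09) and rpl-7 (2.12) were also below the latter. Just outside the threshold, rpl-36 and rps-14 share a peak of 63.4 with a score of 1.94, rps-5 had 71.1 and 1.91, and rla-2 had 66.2 and 1.66. The 37 unbound members with a ranked peak had a median pooled signal of 53.7 (range 12.5 to 76.0) and a median score of 0.926. All 10830 unbound genes with a ranked peak had medians of 31.99 and 0.335.

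Of the 40 unbound members 3 had no ranked peak in the promoter, rpl-18, rps-2 and rps-17. In the authors' other thresholded list over both replicates, however, rps-17 did have a summit there. That list held 42 members, against 7.12% of all genes: it added rpl-6, rps-18, rps-21 and rps-17 and lacked rpl-34, rpl-39 and rps-30. Status therefore depended on the list for 7 members, and not all of them lay near the threshold: rpl-34 had a score of 3.09 and rps-21 one of 0.928.

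Of 4 pairs of genes whose names differ only in the number after a point, 3 differed in status. The genes rpl-11.2, rpl-24.2 and rpl-41.2 were bound, with pooled signals of 92.1, 158 and 148. Their partners rpl-11.1, rpl-24.1 and rpl-41.1 were not, with 63.4, 58.9 and 33.4. The gene rpl-24.2 is grouped here by name, and its counterparts in yeast and human act in assembly of the large subunit. It is therefore paired with rpl-24.1 by name only, not as a copy of the same ribosomal protein gene. Neither rpl-25.1 (58.4, score 1.30) nor rpl-25.2 (28.8, score 0.377) was bound.

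All 41 bound members had the summit upstream of the annotated start, at a median of 285 bp (quartiles 251 and 372, range 27 to 752). Large and small subunit genes had nearly the same median, 285 and 283.5 bp. Over all bound genes the median was close, 258 bp, with a wider spread (quartiles 132.5 and 477 bp). From 150 to 500 bp upstream lay 35 of the 41 summits (85.4%), against 634 of the 1363 summits of all bound genes (46.5%). The ranked peaks of unbound members had a similar place, with a median of 317 bp upstream and 23 of 37 in the same band (62.2%), against 31.6% of all unbound genes with a ranked peak. The band was set after the positions had been seen.

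**Figure D5:**
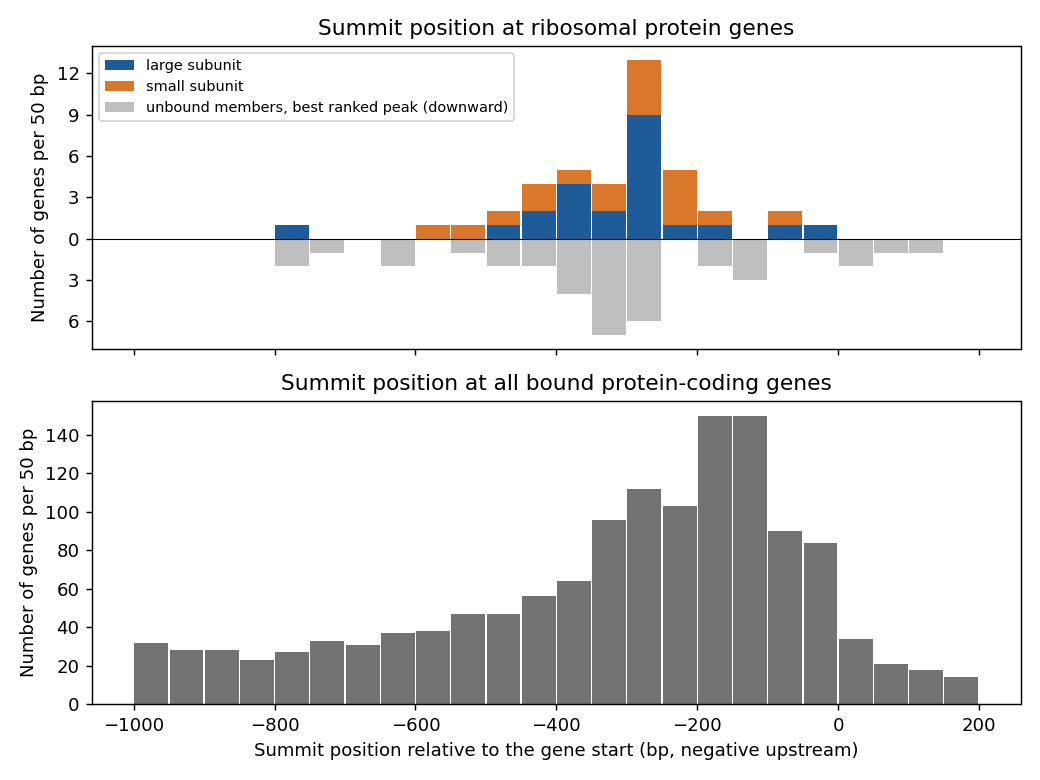
Number of genes per 50 bp of summit position relative to the annotated start. The upper panel has bound large (blue) and small (orange) subunit genes upwards and the best ranked peak of unbound members (grey) downwards, and the lower panel has all bound protein-coding genes; bound members have a median of -285 bp and lie mostly between -500 and -150, while all bound genes spread from -1000 to 197.

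Ribosomal protein genes often stand head to head with a neighbour, and many of their summits could belong to either gene. A divergent start lay within 1000 bp upstream of 48 of the 81 members (59.3%), against 17.7% of all genes. Of these 48 members 26 were bound (54.2%), against 16.5% of all genes with such a neighbour. Members with neither a divergent start nor the end of a same-strand gene within 500 bp upstream were bound about as often, 14 of 24 (58.3%), against 4.72% of such genes. Of the 9 members with a same-strand gene end within 500 bp upstream and no divergent start, 1 was bound, rps-7, against 4.81% of such genes. By subunit, 13 of 29 large and 13 of 19 small subunit genes with a divergent start were bound, and 10 of 16 and 4 of 8 of those with neither neighbour.

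The summit of 29 of the 41 bound members (70.7%; 15 large and 14 small subunit genes) also lay in the promoter window of at least 1 other protein-coding gene, against 49.4% of all bound genes. The partners had varied roles. They were hsr-9, a 53BP1 family gene, at rps-19, ekl-4 at rps-20, ifet-1, a translational repressor gene, at rps-1, and lin-54, a gene of the DREAM complex, at rpl-12. The peak of rpl-9 lay also in the promoter of lpd-7, the pescadillo gene of ribosome biogenesis. With rpl-39 and rps-30, whose starts are 499 bp apart, a large and a small subunit gene shared 1 bound peak, so the 41 bound members had 40 distinct peaks. No such neighbour was found for rpl-3 or rpl-35. Among the 6 bound members of each subunit with the highest mean log2 signal, several had a summit nearer to the divergent start than to their own. These were rpl-20, rpl-43, rps-19, rps-20, rps-23 and rps-26. For rpl-20, rpl-43 and rps-26 the neighbours were Y17G9B.5, Y48B6A.1 and tmem-107. At rpl-15, rpl-7A and rps-1, also in that selection, the summit was nearer to the start of the member. Among the other bound members with a divergent start, that start was nearer at rpl-9, rpl-22, rpl-31, rpl-33, rpl-34, rpl-39, rps-12, rps-13, rps-27 and rps-29. The start of the member was nearer at rpl-5, rpl-7, rpl-12, rps-9, rps-15, rps-22 and rps-30. The signals given above for shared peaks cannot be assigned to 1 gene.

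Of the bound members only rps-26 had a tRNA, snoRNA, snRNA, miRNA or rRNA gene within 200 bp of its summit, the snoRNA gene F39B2.14 at 106 bp, against 99 of all 1363 bound genes (7.26%). Some ribosomal protein genes carry snoRNA genes within their bodies: 8 of the 13 hosts were bound, and 33 of the 68 other members. Over all members the share was 50.6%.

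Bound members were spread over the chromosomes. They numbered 11 of 25 on I, 6 of 10 on II, 9 of 18 on III, 11 of 18 on IV, 3 of 8 on V and 1 of 2 on X. The share of all genes that were bound ranged from 4.31% on V to 10.2% on III.

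Other genes of the translation machinery were bound in smaller shares than the 50.6% of the members. The share over all nuclear protein-coding genes was 6.82%, and no test of the differences was made. Mitochondrial ribosomal protein genes, whose products serve a separate ribosome, were bound in 13 of 70 cases (18.6%, interval 11.19 to 29.2), with a median pooled signal of 106 and a median position 184 bp upstream. Of 37 genes for initiation and elongation factors 12 were bound (32.4%, 19.6 to 48.5), with a median signal of 122. The highest of these was eif-3.C, a subunit of the initiation factor that joins mRNA and small subunit, with 173 and 119 in the replicates. Of 20 ribosome biogenesis genes 6 were bound (30%, 14.5 to 51.9), among them fib-1, for the rRNA methylase fibrillarin, with 86.1 and 80.9. Another of them, lpd-7, was counted through the peak that it shares with rpl-9. RNA polymerase genes were listed by name only. Of 6 genes named rpoa- or rpac-, listed under RNA polymerase I, which makes rRNA, 1 was bound, rpac-19. Of 4 genes named rpc-, listed under RNA polymerase III, 0 were bound (interval 0 to 48.99%). A subunit used by both polymerases could stand in only 1 of these lists, so they do not separate the polymerases.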

How the data were processed

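Peak lists of anti-GFP ChIP-seq from both replicates were analysed. The labels name ce11 as the assembly. The deposited file descriptions say that filtered alignments and a control went into the peak calls; the aligner, caller, IDR version and read numbers remain not given in the sources used here. Each deposited signal is the peak strength assigned by the authors' caller; its scaling is not stated, so it was used only to describe and rank peaks within a list. The -log10 global IDR comes from the list of ranked peaks deposited by the authors. Its further signal columns were taken as replicates 1 and 2, because the values were identical to each replicate's own ranked list at 40 of 40 member peaks.

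Gene models were Ensembl release 115. Where a promoter held several summits, the strongest was used. Positions are 1-based. Scripts ran under Python 3.11.15 (matplotlib 3.10.9, SciPy 1.17.1, pandas 2.3.3, NumPy 2.4.6), and the summit assignment was tested on simulated data. Members, lists, roles and words were chosen with earlier results of these data known, so no p-values are given. Named were, per subunit, the 6 bound members with the highest mean log2 signal, the 3 weakest bound, the 4 unbound with the highest score, genes with a number after a point in their name, rla genes, members without a ranked peak, with a shared peak or near a small RNA gene, and the 2 bound members with the largest replicate difference. Others named were chosen after their values were seen. Alternatives were other lists, windows and gene sets, each replicate alone, and the nearest start.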

Additional observations from a re-analysis of the deposited data

How the results depend on the processing

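The number of bound members stayed within 1.5 times of 41 with promoters of 500 bp upstream to 100 bp downstream or of 2000 bp upstream to 200 bp downstream, with any base of a peak in the promoter, and in the other thresholded list. It was 25 to 26 in the lists of single replicates (large subunit 14 to 14, small subunit 11 to 12), 13 under an IDR of at most 0.0001 (5 and 8) and 25 with the single nearest start (15 and 10). The difference in bound share, large minus small subunit, kept its sign in these settings: -10.7 to -7.48 points in single replicates, -20.5 in the other list, -15.8 under the stricter IDR, -7.61 and -14.5 with the shorter and longer promoter, -2.26 with the nearest start, -14.6 without gene copies and -9.13 without the rla genes, an alternative added after the data were seen. The interval included 0 in each. The sign turned for ranked peaks of any score (4.45, -5.24 to 18.8) and at the score of 5 (2 of 50 large, 0 of 31 small). The median signal of bound members was 137 with the shorter promoter and 56.9 to 66.1 in the replicate columns, which are not on the pooled scale. For the large subunit it was 132 in the other list and 55.0 to 64.8 in the replicates. For the small subunit it was 122 in the other list, 129 without rps-26, 188 with the shorter promoter and 70.6 to 83.0 in the replicates, so the order of the subunits turned in the other list. The median position was -280 and -288 bp with the shorter and longer promoter and -288 to -285 in single replicates. The causes were not tested. No paired analysis was possible because there was 1 group and no test. Depth is unknown, so signal cannot be weighed against counting error.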
